A study of Homo sapiens with 2 samples.

Results

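The genes of the endoplasmic reticulum (ER) unfolded protein response (UPR) were examined in the APL cell line NB4 after CRNDE knockdown. The set held 10 of the 11619 genes listed in the deposited tables, and was chosen by gene symbol as ER chaperones, sensors and targets of the factors XBP1 and ATF6. The rule itself uses no expression value, but the genes were chosen with earlier results of these data known. All 10 were found in both libraries. NB4 is a human promyelocytic leukemia line that carries the PML/RARα fusion. One group was infected with lentivirus for an shRNA against CRNDE (labelled sh-CRNDE, below knockdown cells). The other received lentivirus for a non-targeting shRNA (labelled sh-Control, below control cells), and both were infected for 3 days, so the control cells carried a vector too. The paper designed a pair of CRNDE shRNAs, and which of them the sequenced cells carried is not given in the sources used here. There was 1 library per group. No difference given here can therefore be set against the spread between replicates, no p-value is given, and knockdown and library cannot be told apart.

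Secreted and membrane proteins are folded in the ER, where chaperones hold unfolded chains and oxidoreductases of the protein disulfide isomerase (PDI) family join their cysteines. When unfolded protein builds up, the membrane sensors IRE1 (gene ERN1), PERK (gene EIF2AK3) and ATF6 start the UPR. IRE1 cuts an intron out of XBP1 mRNA in the cytoplasm, which changes the reading frame and yields an active transcription factor. ATF6 moves to the Golgi apparatus, where the proteases encoded by MBTPS1 and MBTPS2 release its transcription factor part. PERK slows translation and favors the synthesis of ATF4. Promyelocytes make large amounts of granule protein, all of which enters the ER.

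ATF6 and XBP1 act on their targets through the ER stress element (ERSE), which reads CCAAT, then 9 bases of any kind, then CCACG. Exact matches on either strand were looked for in RefSeq promoter windows (GRCh38.p14), which run from 250 bases before to 50 bases after an annotated start. Of 35116 windows of this length, 27 held an ERSE, or 0.0769%. The 10 genes had 13 windows, and 5 of these, from 5 genes, held one. The set was chosen in part as targets of these factors, so this count is a description and no test of enrichment. The matches are shown because they are the shared feature by which several of these genes are known to answer the UPR, with the letters of the element in capitals and read in the direction of the element.
HSPA5: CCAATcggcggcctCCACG
HSP90B1, upstream match: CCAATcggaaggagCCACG
HSP90B1, downstream match: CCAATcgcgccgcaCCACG
CALR: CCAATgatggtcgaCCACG
PDIA6: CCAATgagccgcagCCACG
XBP1: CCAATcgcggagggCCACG
The element lay at chr9:125241391-125241409 for HSPA5 (minus strand), chr12:103930216-103930234 and chr12:103930321-103930339 for HSP90B1, chr19:12938384-12938402 for CALR, chr2:10812853-10812871 for PDIA6 (minus strand) and chr22:28800603-28800621 for XBP1 (minus strand). It ran with the gene in HSPA5, PDIA6, XBP1 and the upstream match of HSP90B1, and against it in CALR and the downstream match of HSP90B1. In HSPA5, PDIA6 and XBP1 the match began 66, 86 and 52 bases before the annotated start.

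A second element, ERSE-II, which reads ATTGG, 1 base of any kind and CCACG, was present in 19 windows, or 0.0541% of all. HERPUD1 was the single member with one, at chr16:56932025-56932035 on the plus strand, and its letters are shown for comparison with the ERSE.
HERPUD1: ATTGGgCCACG
The core of the UPR element, TGACGTGG, stood in 0.729% of all windows and in 0 windows of the members. ATF6, DNAJB9, DNAJC3 and PDIA4 held no exact match to any of these motifs. These letters are a description of the windows and show no binding of a factor in NB4 cells.

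The upstream sequence is printed for 3 members. HSPA5 encodes BiP, the classical marker of the UPR, HSP90B1 holds a pair of elements, and ATF6 holds none and had the highest change of the set. Capitals mark the fixed letters of the ERSE, which appear as the reverse complement where the element runs against the gene. The stretches are chr9:125241344-125241593 (minus strand), chr12:103930160-103930409 (plus strand) and chr1:161766070-161766319 (plus strand), each of the 250 bases before the annotated start.
HSPA5: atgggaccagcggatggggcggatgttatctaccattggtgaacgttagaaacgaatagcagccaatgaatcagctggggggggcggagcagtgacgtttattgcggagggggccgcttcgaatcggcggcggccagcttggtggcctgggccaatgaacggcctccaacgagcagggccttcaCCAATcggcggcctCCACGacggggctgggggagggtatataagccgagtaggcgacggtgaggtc
HSP90B1: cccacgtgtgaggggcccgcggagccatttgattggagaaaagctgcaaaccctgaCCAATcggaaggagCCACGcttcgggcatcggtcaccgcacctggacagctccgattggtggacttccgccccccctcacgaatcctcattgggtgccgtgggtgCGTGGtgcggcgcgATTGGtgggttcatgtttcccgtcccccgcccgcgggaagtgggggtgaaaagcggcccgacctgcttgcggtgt
ATF6: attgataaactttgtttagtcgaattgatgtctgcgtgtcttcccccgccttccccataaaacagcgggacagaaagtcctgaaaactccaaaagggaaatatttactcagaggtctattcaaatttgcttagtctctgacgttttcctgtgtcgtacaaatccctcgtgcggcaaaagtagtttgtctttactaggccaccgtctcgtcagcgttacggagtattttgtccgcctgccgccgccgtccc

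The deposited values are FPKM, fragments divided by transcript length in kilobases and by the mapped total, and the depth of the libraries is unknown. The change of a gene is the value of log2(FPKM + 1) in knockdown cells minus that in control cells, which understates the change of lowly expressed genes. A change past 1.5-fold, or 0.585 on the log2 scale, was counted, and "rose" and "fell" are used only for such changes. The targeted gene CRNDE was at 5.92 FPKM in control cells and 1.85 FPKM in knockdown cells and fell by 1.28 on the log2 scale. Across all genes 17.2% were past 1.5-fold, 8.38% upward and 8.83% downward in knockdown cells. The median FPKM over all genes was 3.95 in control cells and 3.89 in knockdown cells. The mitochondrial rRNA gene MT-RNR2 took 16.2% of the summed FPKM of knockdown cells and is listed at 0 in control cells. It is 1 of 182 genes listed at 0 there, and 139 genes are listed at 0 in knockdown cells. Of 7 promyelocyte markers 6 were listed, led by MPO at 1135 FPKM in control cells and 738 FPKM in knockdown cells. Of these, 4 fell and 1 rose, and their summed level was 1405 FPKM in control cells and 822 FPKM in knockdown cells. The gene that rose was CEBPE, from 0.748 FPKM in control cells to 8.75 FPKM in knockdown cells. The paper names CEBPE, with CTSG and PRTN3, among differentiation genes regulated by the knockdown. It also reports differentiation of NB4 cells after knockdown, judged by CD11b. The median change of the 6 was -0.79, and -0.59 with the correction for GC content described below. MPO was then at -0.44, within the threshold. The part of this shift of the markers in the values below was not tested. In bulk RNA fewer cells of a type and less RNA per cell cannot be told apart. Of the genes chosen as markers of other cell types, EPCAM, chosen for epithelial cells, was at 4.82 FPKM in control cells and 4.49 FPKM in knockdown cells. PECAM1, chosen for endothelial cells, was at 2.76 and 2.71 FPKM. These levels alone do not show that such cells were present.

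Of the 10 UPR genes 1 rose past 1.5-fold in knockdown cells, 0 fell, and 9 stayed within the threshold. The gene that rose was ATF6, a sensor of the response, while the chaperone genes HSPA5 and HSP90B1 were within 0.06 of their control values on the log2 scale. With a threshold of 2-fold, past which 3.43% of all genes were higher, no member rose. At 1.5-fold, 1 of 10 members was past the threshold upward, where 8.38% of all genes were. The median change of the 10 genes was 0.05, against -0.01 over all genes, with a range from -0.35 for CALR to 0.80 for ATF6. By sign, 6 were higher and 4 lower in knockdown cells, although HSP90B1 changed sign under 3 of 7 alternative settings.

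The abundant ER chaperones and folding enzymes came first by level. CALR encodes calreticulin, a lectin chaperone that binds glycoproteins and stores calcium. It was the highest of the set, at 729 FPKM in control cells and 572 FPKM in knockdown cells, and had the lowest change, -0.35. The direction held under all 7 settings, from -0.41 after quantile normalization to -0.27 after correction for GC content. HSP90B1, the ER form of the HSP90 chaperones, was at 179.8 FPKM in control cells and 180.4 FPKM in knockdown cells. Its change of 0.005 was the smallest of the set. HSPA5, which encodes the chaperone BiP and holds the sensors inactive when the ER is not stressed, was at 160.3 FPKM in control cells and 154.3 FPKM in knockdown cells, a change of -0.06.

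The PDI genes PDIA6 and PDIA4 moved apart slightly. PDIA6, an oxidoreductase that also acts on the sensors, was at 76.3 FPKM in control cells and 81.4 FPKM in knockdown cells, a change of 0.09. PDIA4, an oxidoreductase found in complexes with BiP, was at 42.9 FPKM in control cells and 37.5 FPKM in knockdown cells, a change of -0.19. None of these 5 ER-resident folding genes was past 1.5-fold, and their changes ran from -0.35 to 0.09.

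The less abundant members varied more. DNAJC3 encodes a co-chaperone of BiP with a J domain, also known as an inhibitor of the kinase PKR. It was at 19.0 FPKM in control cells and 22.5 FPKM in knockdown cells, a change of 0.24. DNAJB9, a second J-domain co-chaperone that restrains IRE1 through BiP, was at 2.97 FPKM in control cells and 4.65 FPKM in knockdown cells, a change of 0.51. Without a pseudocount the ratio of the libraries was 1.57 for DNAJB9, so its place below the threshold came from the pseudocount of 1, and it was past 1.5-fold with a pseudocount of 0.1 (0.63) or 0.01 (0.65) and after rescaling to TPM (0.61). With these settings 2 members were past the threshold upward, where 13.6%, 14.2% and 12.8% of all genes were. HERPUD1, a membrane protein of ER-associated degradation, was at 2.95 FPKM in control cells and 4.26 FPKM in knockdown cells, a change of 0.41 and a ratio of 1.44. Both DNAJB9 and HERPUD1 were higher in knockdown cells under all 7 settings, at levels under 5 FPKM in both libraries.

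The transcription factor genes went in opposite directions. ATF6 (ENSG00000118217, 16 exons, chromosome 1, 161766298 to 161977574, plus strand, GRCh38) was at 4.60 FPKM in control cells and 8.78 FPKM in knockdown cells, and rose by 0.80. The ratio of the libraries was 1.91. A lower change was found in 95.0% of all genes. It stayed past 1.5-fold under all 7 settings, from 0.68 with the GC correction to 0.93 with a pseudocount of 0.01, and did not reach 2-fold. XBP1 was at 11.6 FPKM in control cells and 9.60 FPKM in knockdown cells, a change of -0.24, with values from -0.28 to -0.24 over the settings.

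**Figure D1:**
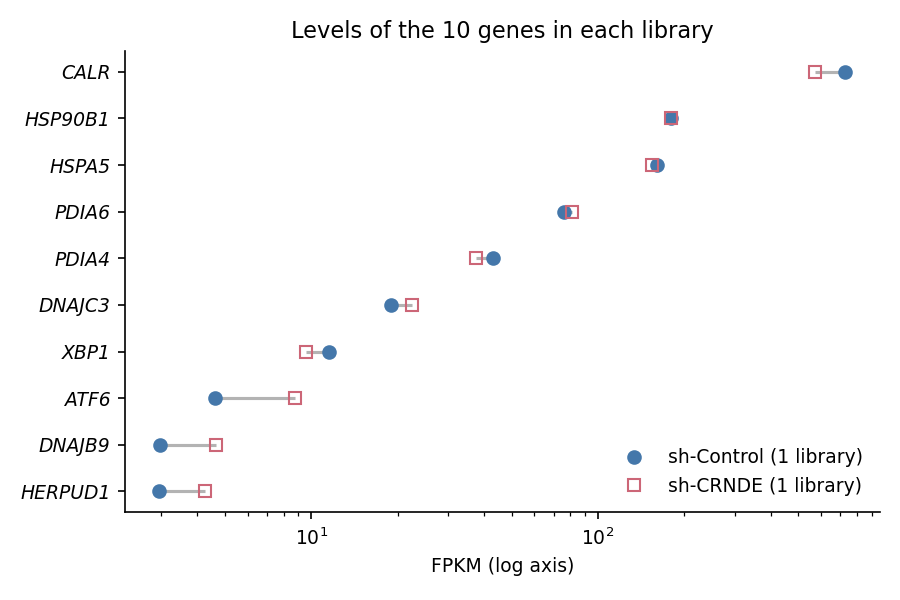
FPKM on a log axis for the 10 genes in sh-Control (filled circles) and sh-CRNDE (open squares), 1 library each and with no error bars. CALR is highest, at 729 and 572 FPKM, the order of the genes is the same in both libraries, and the widest gap is that of ATF6.

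The FPKM of XBP1 sums the forms of its mRNA with and without the intron that IRE1 removes, and ATF6 is activated by cleavage of its protein, so neither activity can be read from these values. The intron is shown because its removal is the event that a gene-level value misses. As annotated it has 26 bases, at chr22:28796128-28796153 on the minus strand, and is marked as an intron in 1 of the 6 XBP1 transcripts of GENCODE release 44. It is given in capitals with 12 bases on either side. The first bases of the intron recur just after it, so boundaries shifted by a few bases give the same spliced product. The capitals mark the annotated placement, which need not be the bases that IRE1 cuts out.
XBP1: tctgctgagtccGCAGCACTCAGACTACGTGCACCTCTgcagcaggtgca

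The order of the 10 genes by FPKM was the same in both libraries, with CALR first, HSP90B1 second and HERPUD1 last. CALR alone made up 59.3% of the summed FPKM of the set in control cells and 53.2% in knockdown cells. The summed level was 1230 FPKM in control cells and 1076 FPKM in knockdown cells. Without CALR it was 500.3 FPKM in control cells and 503.3 FPKM in knockdown cells. The share of ATF6 in the sum was 0.374% in control cells and 0.816% in knockdown cells.

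**Figure D2:**
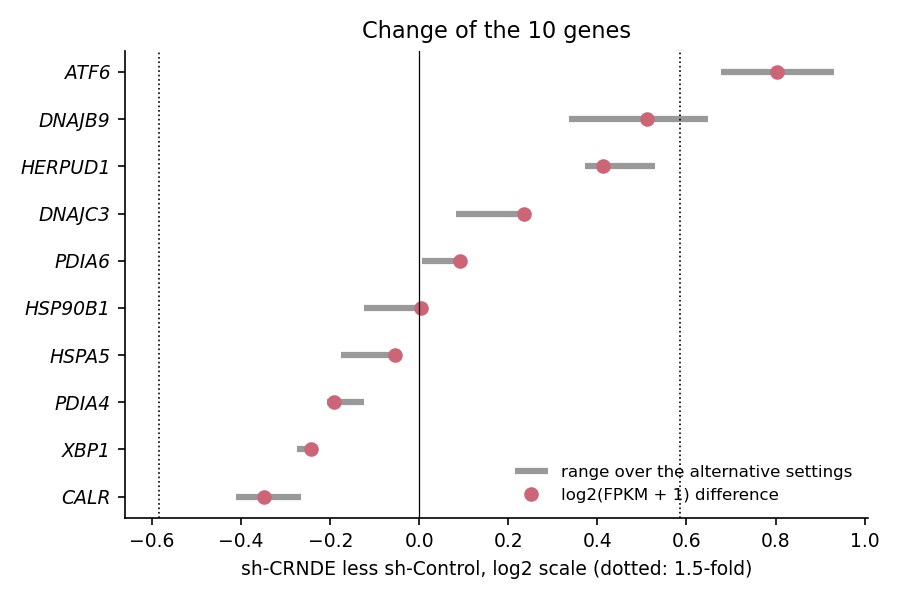
Change of each gene, sh-CRNDE less sh-Control on the log2(FPKM + 1) scale (points), with the range over the main value and 7 alternative settings (gray bars) and 1.5-fold (dotted lines). ATF6, at 0.80, lies past the upper line over its whole range, the bar of DNAJB9 crosses it, and no gene reaches the lower line.

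Ratios of related genes within a library do not depend on the scaling between libraries. ATF6 was at 0.255 times the FPKM of its relative ATF6B in control cells and 0.639 times in knockdown cells. ATF6B itself was at 18.0 FPKM in control cells and 13.7 FPKM in knockdown cells, a change of -0.37. The ratio of CALR to CANX, which encodes the membrane-bound counterpart calnexin, was 5.49 in control cells and 3.74 in knockdown cells. CANX was at 132.9 FPKM in control cells and 153.0 FPKM in knockdown cells, a change of 0.20. These pairs differ in GC content, with 41.2% for ATF6 and 57.6% for ATF6B, and 53.8% for CALR and 39.9% for CANX. With the GC correction given below, the changes were 0.68 for ATF6 and -0.20 for ATF6B. For CALR and CANX they were -0.27 and 0.05. The part of GC content in these ratios was not tested. HSPA5 stood at 54.1 times the FPKM of its co-chaperone DNAJB9 in control cells and 33.2 times in knockdown cells. Their GC content was 46.1% and 37.3%, and their changes with the GC correction were -0.14 and 0.34. The part of GC content in this ratio was not tested either.

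The ER chaperones were also set beside their relatives in other compartments. HSPA5 was at 0.452 times the FPKM of HSPA8, the constitutive cytosolic relative, in control cells and 0.262 times in knockdown cells. HSP90B1 was at 0.292 times the FPKM of the cytosolic HSP90AA1 in control cells and 0.159 times in knockdown cells. Against HSP90AB1, the other cytosolic form, the ratio of HSP90B1 was 0.268 in control cells and 0.258 in knockdown cells. Of the mitochondrial relatives, HSPA9 gave a ratio of HSPA5 of 1.13 in control cells and 0.903 in knockdown cells. The ratio of HSP90B1 to TRAP1 went the other way, from 3.45 in control cells to 4.92 in knockdown cells. This pair also differs in GC content, with 41.8% for HSP90B1 and 57.5% for TRAP1. With the GC correction given below, their changes were -0.12 and -0.33, and the part of GC content was not tested. HSPA8 (355 FPKM in control cells and 589 FPKM in knockdown cells) and HSP90AA1 (616 and 1134 FPKM) were past 1.5-fold with changes of 0.73 and 0.88, and HSP90AB1 was not, with a change of 0.06.

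GC content moved with the change across all genes. In genes with a canonical transcript under 40% GC the median change was 0.18, and in genes of 60% GC or more it was -0.29. The members ran from 37.3% GC in DNAJB9 to 53.8% in CALR. With the median of genes in the same GC bin subtracted, DNAJB9 was at 0.34, DNAJC3 at 0.08, HERPUD1 at 0.37, CALR at -0.27 and ATF6 at 0.68. HSP90B1 and HSPA5 were then at -0.12 and -0.14, and the median of the set went from 0.05 to -0.06. The part of GC content in the changes was not otherwise tested.

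The changes were also set beside level and promoter motif. The 5 genes with an exact ERSE (CALR, HSP90B1, HSPA5, PDIA6 and XBP1) had changes from -0.35 to 0.09, and the 5 without one (ATF6, DNAJB9, DNAJC3, HERPUD1 and PDIA4) from -0.19 to 0.80. These ranges overlap. Of the genes without an exact ERSE, HERPUD1 and DNAJC3 held one with 1 mismatch, and HERPUD1 also held the ERSE-II. The genes with the element were at 11.6 to 729 FPKM in control cells and those without it at 2.95 to 42.9 FPKM, so motif and level went partly together. The level ranges overlap too, since XBP1, at 11.6 FPKM, was below PDIA4 and DNAJC3. Over all genes, 17.5% of those with a mean under 10 FPKM were past 1.5-fold, 16.6% of those from 10 to 100 FPKM and 13.1% of those of at least 100 FPKM. The TruSeq RNA v2 kit does not mark strand. In GENCODE, exons of HSP90B1 share 805 bases with UQCC6, those of PDIA6 share 1033 bases with ATP6V1C2, and those of CALR share 270 bases with the gene ENSG00000267458, all on the opposite strand, so reads there cannot be told apart without strand.

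Genes of the same pathway outside the set were taken from 4 lists, of other sensors and ATF6 processing, the PERK arm, other ER chaperones and folding enzymes, and ER-associated degradation. Of the 73 genes in these lists 70 were listed in the libraries. Of the 70 genes, 4 were past 1.5-fold upward and 6 downward, 5.71% and 8.57%, beside 8.38% and 8.83% of all genes. One of the 6, PPP1R15B, is listed at 0 in knockdown cells, and with genes under 1 FPKM in either library left out, the counts were 4 and 4. The shares of all genes were not computed with that filter. The median change of the 70 genes was -0.01.

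Among the other sensors and proteases 1 of 6 rose and 0 fell, beside 8.38% and 8.83% of all genes. The median change was 0.01. The gene that rose was CREB3, a membrane-bound transcription factor related to ATF6, from 2.70 FPKM in control cells to 4.66 FPKM in knockdown cells, a change of 0.61. EIF2AK3, which encodes PERK, was at 2.28 FPKM in control cells and 2.60 FPKM in knockdown cells, a change of 0.13. The proteases that cleave ATF6 differed in sign, MBTPS1 with a change of -0.32 and MBTPS2 with one of 0.17. ERN1 was not analysed here.

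In the PERK arm 0 of 7 genes rose, 1 fell and 1 was listed at 0 in knockdown cells. Of all genes 8.38% rose and 8.83% fell. The median change of the arm was 0.10. ATF4, the main transcription factor of the arm, was at 66.4 FPKM in control cells and 75.8 FPKM in knockdown cells, a change of 0.19. DDIT3, which encodes the death-associated factor CHOP, was at 2.37 FPKM in control cells and 3.73 FPKM in knockdown cells, a change of 0.49. This was past 1.5-fold with a pseudocount of 0.1 (0.64) or 0.01 (0.65) and after rescaling to TPM (0.62). PPP1R15A, a phosphatase subunit that reverses the translation block, was at 4.39 FPKM in control cells and 2.57 FPKM in knockdown cells, a change of -0.59, and after quantile normalization or the GC correction it was not past 1.5-fold. PPP1R15B, a related subunit, was at 17.0 FPKM in control cells and has a listed value of 0 in knockdown cells, so no fold change is given.

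Of 31 other ER chaperones and folding enzymes, 2 rose and 1 fell, beside 8.38% and 8.83% of all genes. The other 28 were within the threshold, and the median change of the list was -0.01. TXNDC5, an oxidoreductase of the PDI family, rose from 30.2 to 77.4 FPKM, a change of 1.33. It shares exons with a read-through transcript from the neighboring BLOC1S5, so reads may be split between them. DNAJC1, an ER membrane protein with a J domain, rose from 2.45 to 4.87 FPKM, a change of 0.77. TXNDC12, a small ER thioredoxin, fell from 23.3 to 14.8 FPKM, a change of -0.62. Several genes often measured as UPR targets were within the threshold. The changes were -0.09 for HYOU1, -0.20 for SDF2L1, 0.05 for MANF and -0.17 for CRELD2. The PDI genes PDIA3 and P4HB were at 152.4 and 99.8 FPKM in control cells and 165.8 and 113.1 FPKM in knockdown cells, with changes of 0.12 and 0.18. In promoter windows, 3 of 27 such genes with a window (CANX, CRELD2 and ERO1B) held an exact ERSE and 2 (HYOU1 and SDF2L1) an ERSE-II.

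Of 26 genes of ER-associated degradation, which returns misfolded proteins to the proteasome, 1 rose and 3 fell, beside 8.38% and 8.83% of all genes. The median change of the list was -0.09. RNF5, a membrane ubiquitin ligase, rose from 11.0 to 22.5 FPKM, a change of 0.97. It has near-identical copies in the genome, among which reads may be split. RNF139, another membrane ubiquitin ligase, fell from 7.41 to 0.203 FPKM, FAM8A1, a partner of the HRD1 ligase, from 6.70 to 1.45 FPKM, and UBXN6, a cofactor of the ATPase VCP, from 5.83 to 3.17 FPKM. Their changes were -2.81, -1.65 and -0.71, and that of UBXN6 was -0.45 after the GC correction. The value of RNF139 in knockdown cells is near the floor, and with the filter at 1 FPKM 2 genes of the list fell (share of all genes not computed). The HRD1 complex genes SYVN1, SEL1L and DERL1 were within the threshold with the pseudocount of 1, while the partner FAM8A1 was not. Their changes were -0.54 for SYVN1, which encodes HRD1, -0.003 for SEL1L and 0.01 for DERL1. EDEM1, another gene of the list, had a change of -0.15. SYVN1 was past 1.5-fold with a pseudocount of 0.1 (-0.63) or 0.01 (-0.64) and after rescaling to TPM (-0.64). So was EDEM2, at -0.55 with the pseudocount of 1 and at -0.64, -0.65 and -0.64 with these settings. With them 5 genes of the list were past 1.5-fold downward. The share of all genes downward was not computed for them, so this count is no result about the list. HERPUD1, the member of the set that works with this complex, was at 0.41.

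Chaperones of other compartments served for comparison. Of 20 cytosolic chaperone genes 4 rose and 0 fell, beside 8.38% and 8.83% of all genes. The median change was 0.24. With the GC correction it became 0.11, and 3 genes rose. The share of all genes that rose was not computed with this correction. Besides HSPA8 and HSP90AA1, the genes that rose were PTGES3 (79.4 FPKM in control cells and 242.3 FPKM in knockdown cells) and ST13 (26.7 and 43.2 FPKM), both co-chaperones of these proteins. HSPA8, HSP90AA1 and PTGES3 have processed pseudogenes, to which reads may have been assigned. The change of ST13 was 0.52 and within the threshold after the GC correction. Of 8 mitochondrial chaperone genes 0 rose and 0 fell, beside 8.38% and 8.83% of all genes. The median change of these 8 was 0.21 and became 0.08 with the GC correction. With either smaller pseudocount, quantile normalization or TPM, 1 of the 8 was past 1.5-fold downward. The share of all genes downward was not computed for these settings. With 1 library per group, the difference between these medians and that of the 10 ER genes was not tested.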

How the data were processed

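Total RNA of NB4 cells was taken on day 3 of infection, 1 library per group, and groups were read from the sample titles. Libraries were made with the TruSeq RNA v2 kit and sequenced on an Illumina MiSeq. The submitters' processing notes name fastp 0.20.0, HISAT2 2.0.4, StringTie 1.2.3 and the build GRCh38. The annotation release is not given in the sources used here. FPKM per gene was deposited by the authors, and each gene listed exceeds 0.5 FPKM in one library or both. Read counts are not kept in FPKM, so no counting interval could be given.

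Libraries were joined by Ensembl identifier. The pseudocount was 1 and the threshold 1.5-fold, as in the study, and all genes were kept. The members and lists were chosen with earlier results of these data known. Named are all members, CRNDE, a fixed set of pathway genes, and list genes past 1.5-fold with at least 1 FPKM in either library, at most 4 per list and direction. GAPDH, also in that rule, was at 942 FPKM in control cells and 785 FPKM in knockdown cells. Positions, exons and GC content are those of GENCODE release 44 (GRCh38), which matched 11508 of the 11619 identifiers. Promoter windows are from RefSeq (GRCh38.p14). Some listed markers are not reported here. A planned search of the protein sequences was not run. Alternatives were 2 other pseudocounts, 4 other scalings, a filter at 1 FPKM, and 2-fold. The scripts were tested on simulated data. Python 3.11.15, numpy 2.4.6, pandas 2.3.3 and matplotlib 3.10.9 were used.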

Additional observations from a re-analysis of the deposited data

How the results depend on the processing

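The count of members that rose, 1, became 2 with a pseudocount of 0.1, with one of 0.01 and after rescaling to TPM (with small RNA, rRNA and mitochondrial genes left out), when DNAJB9 joined ATF6, and the share of all genes that rose was then 13.6%, 14.2% and 12.8%. It became 0 with a threshold of 2-fold, past which 3.43% of all genes rose. It was 1 after centring, after quantile normalization, with the GC correction and with the filter at 1 FPKM, and the count that fell was 0 under every setting. The 7 settings are not independent checks. Rescaling to TPM kept the pseudocount of 1 on larger values, so it acted like a smaller pseudocount. The filter at 1 FPKM left the value of each member unchanged, and centring moved each by 0.006. The median change of the members, 0.05, was -0.058 with the GC correction, and under the other settings it moved by less than 0.1. Over the 4 further ER lists, the 4 genes past the threshold upward and 6 downward became 6 and 8 with a pseudocount of 0.1 or 0.01, 5 and 8 after rescaling to TPM, 4 and 5 after quantile normalization, 4 and 4 with the GC correction or the filter at 1 FPKM, and 1 and 3 with the stricter threshold of 2-fold. The share of all genes past the threshold downward was not computed for the alternatives, so these downward counts have no share beside them. The upward share was not computed after centring, after quantile normalization, with the GC correction or with the filter at 1 FPKM. Upward counts under those settings, of members and of lists, therefore have no share beside them either. The filter also leaves fewer list genes to count. Members with an ERSE numbered 5, and 7 when 1 mismatch was allowed in the fixed letters, with which 1.55% of all windows matched. No replicate could be left out and no paired analysis was possible because there was 1 library per group. Depth is unknown, so the precision of the low values of DNAJB9, HERPUD1 and ATF6 cannot be stated.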
